A study of Mus musculus with 3 samples.

Results

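The genes of the respiratory chain and of ATP synthase were examined as a pair of groups, those carried by the mitochondrial genome and those carried by nuclear chromosomes. Members were taken from the gene expression table by name, as every unique name of the families mt-Nd, mt-Co, mt-Cytb, mt-Atp, Ndufa, Ndufb, Ndufc, Ndufs, Ndufv, Uqcr, Cox4 to Cox8 and Atp5, together with Sdha, Sdhb, Sdhc, Sdhd, Cyc1 and Cycs. Names marked as pseudogenes were left out, which removed 7 names. The rule found 108 genes among 51826 rows, of which 13 were mitochondrially encoded and 95 nuclear encoded. The nuclear group also held 9 complex I assembly factors, since their names share the Nduf or Atp5 root, and 8 isoforms that are typical of other tissues.

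The cells were ST2, a mouse stromal line derived from bone marrow. All 3 libraries came from cells that had received both a plasmid and an siRNA by lipofection. The control carried the empty vector with the control siRNA, the NELL2 overexpression library the NELL2 expression construct with the control siRNA, and the Fn1 knockdown library the empty vector with siRNA against Fn1, with siRNA at 30 nM. NELL2 is a secreted glycoprotein and Fn1 encodes the matrix protein fibronectin, and the study asked which signals lie downstream of this pair. Each group had 1 library, so no value below has a replicate error and no test between groups was possible. Both comparisons with the control use the same control library.

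Values are FPKM, sequenced fragments divided by the length of the transcript and by the size of the library, as deposited. Where 3 values of a gene stand side by side, they are those of the control, NELL2 overexpression and Fn1 knockdown, always in this sequence. Ratios are on the log2(FPKM + 1) scale, which understates differences of low genes. A gene was called when it differed by 2-fold or more on this scale and reached 1 FPKM in either library. The estimated depth was 23000000, 23700000 and 24200000 fragments. Nell2 was at 0.640, 326 and 1.06 FPKM, and Fn1 at 2802, 2489 and 137 FPKM, so both targeted genes followed the labels. All 8 marrow stromal markers were at 1 FPKM or more, with a summed level of 2444 to 2844 FPKM. Among the markers of other cell types, 1 of 5 for blood, 1 of 4 for osteoblasts, 1 of 4 for adipocytes, 1 of 3 for endothelium, 0 of 3 for epithelium and 1 of 4 for striated muscle reached 1 FPKM. The muscle list summed to 4.14, 2.83 and 22.3 FPKM, nearly all of it Acta1, whereas Ckm and Myh6 were listed at 0. In the blood list the sum was 4.55, 4.56 and 1.88 FPKM, most of it Cd68, and in each of the lists for osteoblasts, adipocytes, endothelium and epithelium it stayed below 5 FPKM. Whether any other cell type was present, or had a part in the results below, was not tested.

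Respiration in mitochondria passes electrons from NADH and succinate through complexes I, II, III and IV to oxygen, and complex V, the ATP synthase, uses the proton gradient built on the way to make ATP. Complexes I, III, IV and V are assembled from subunits of both genomes, while complex II is built from nuclear encoded subunits. The mitochondrial genes are transcribed as long precursors from both strands of a small circular genome that each cell holds in many copies, and their RNAs are cut apart at the tRNAs and polyadenylated in the organelle. The nuclear genes are transcribed one by one, and many of their promoters carry sites for the factors NRF1, GABPA and YY1.

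The mitochondrial messages stood far above the nuclear ones in every library. In the control the 13 mitochondrial genes had a median of 1481 FPKM and the 88 nuclear genes that reached 1 FPKM in any of the libraries a median of 58.2 FPKM. The medians were 1270 and 60.8 FPKM in the NELL2 overexpression and 1211 and 55.3 FPKM in the Fn1 knockdown library. As listed, 1 nuclear gene in the control, Atp5b, lay above the lowest mitochondrial gene. Together the 13 mitochondrial genes summed to 6.58%, 5.62% and 5.47% of all FPKM. The nuclear group summed to 1.56%, 1.61% and 1.56%. The ratio of the mitochondrial to the nuclear sum was thus 4.22 in the control against 3.48 and 3.49 in the other libraries, or 82.5% and 82.7% of the control.

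The level listed for a mitochondrial gene may depend on how fragments were divided with near-identical sequence elsewhere. How they were divided is not given in the sources used here. GENCODE M21 places 7 unprocessed pseudogenes on the minus strand of chromosome 1 of GRCm38, within chr1:24611535-24616197, that repeat a stretch of the mitochondrial genome from the end of mt-Co1 to the first part of mt-Nd4. The copies of mt-Co2 (Gm28661), mt-Atp6 (Gm10925), mt-Co3 (Gm28437), mt-Nd3 (Gm28438), mt-Nd4l (Gm10222) and mt-Nd4 (Gm28439) had no mismatch over the aligned 681, 678, 783, 342, 294 and 876 bases. For each of these except mt-Nd4, at least 98.1% of the 31-base words of the mitochondrial gene occurred in the copy, and 62.8% did for mt-Nd4. Reads from such bases cannot be assigned to the gene or to the copy from their sequence.

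The copy of mt-Co1, Gm29216, faces the last 492 bases of that gene, and 486 of these were the same. The 6 differences all lay in the first 13 bases of the copy. Counted from 1 at the 5′ end of mt-Co1, they were T1056A, C1057T, A1059G, A1060G, C1062A and A1066T, with the base of the gene first. The facing ends are given 5′ to 3′ as transcribed, with the differences in capitals, from chrM:6381-6440 (plus strand) and chr1:24616138-24616197 (minus strand) of GRCm38.
mt-Co1: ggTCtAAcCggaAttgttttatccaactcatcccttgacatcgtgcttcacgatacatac
Gm29216: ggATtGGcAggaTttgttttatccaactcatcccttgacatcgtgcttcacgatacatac

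The table listed the copies at high FPKM in every library. In the control Gm28661 was at 2928 FPKM beside 2931 for mt-Co2, Gm28437 at 2074 beside 2068 for mt-Co3, Gm28438 at 381 beside 382 for mt-Nd3 and Gm10222 at 907 beside 903 for mt-Nd4l. These 4 pairs shared the listed level nearly evenly. The partial copies Gm28439 and Gm29216 were at 0.662 and 0.342 times the FPKM of mt-Nd4 and mt-Co1. The pair of mt-Atp6 went the other way, with the copy Gm10925 at 2530, 2058 and 1989 FPKM and mt-Atp6 itself at 481, 406 and 387 FPKM. The copy was therefore listed at 5.26, 5.07 and 5.14 times the gene.

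On the mitochondrial genome mt-Atp8 and mt-Atp6 overlap by 43 bases. Both genes and the start of the copy are shown with the overlap in capitals, from chrM:7766-7969, chrM:7927-7986 and chr1:24614592-24614651 of GRCm38, the last on the minus strand.
mt-Atp8: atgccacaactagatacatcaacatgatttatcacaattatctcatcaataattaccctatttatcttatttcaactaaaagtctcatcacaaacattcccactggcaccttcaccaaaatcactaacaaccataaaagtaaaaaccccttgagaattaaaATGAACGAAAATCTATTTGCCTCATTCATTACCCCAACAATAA
mt-Atp6: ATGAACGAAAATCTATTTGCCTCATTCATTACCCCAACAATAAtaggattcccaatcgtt
Gm10925: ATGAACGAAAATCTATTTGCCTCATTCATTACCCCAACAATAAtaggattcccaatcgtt

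As listed, mt-Atp8 was at 5.66, 5.12 and 5.46 times mt-Atp6. When the copy was added to mt-Atp6, scaled by length, mt-Atp6 came to 3000, 2455 and 2367 FPKM, and mt-Atp8 was at 0.908, 0.846 and 0.893 times that level. With all 7 copies added to their genes, the spread from the lowest to the highest mitochondrial gene in the control narrowed from 18.3-fold to 10.2-fold. The median of the 13 genes then was 2246, 1839 and 1715 FPKM, and the lowest of them in the control, mt-Nd3, was at 760 FPKM, with 0 nuclear genes above it. The share of all FPKM held by the mitochondrial genes and their copies together was 9.61%, 8.24% and 7.98%, and the ratio to the nuclear sum 6.16, 5.11 and 5.10. In this share and ratio the copies entered at their listed FPKM, not scaled by length, so partial copies weigh more here.

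**Figure D1:**
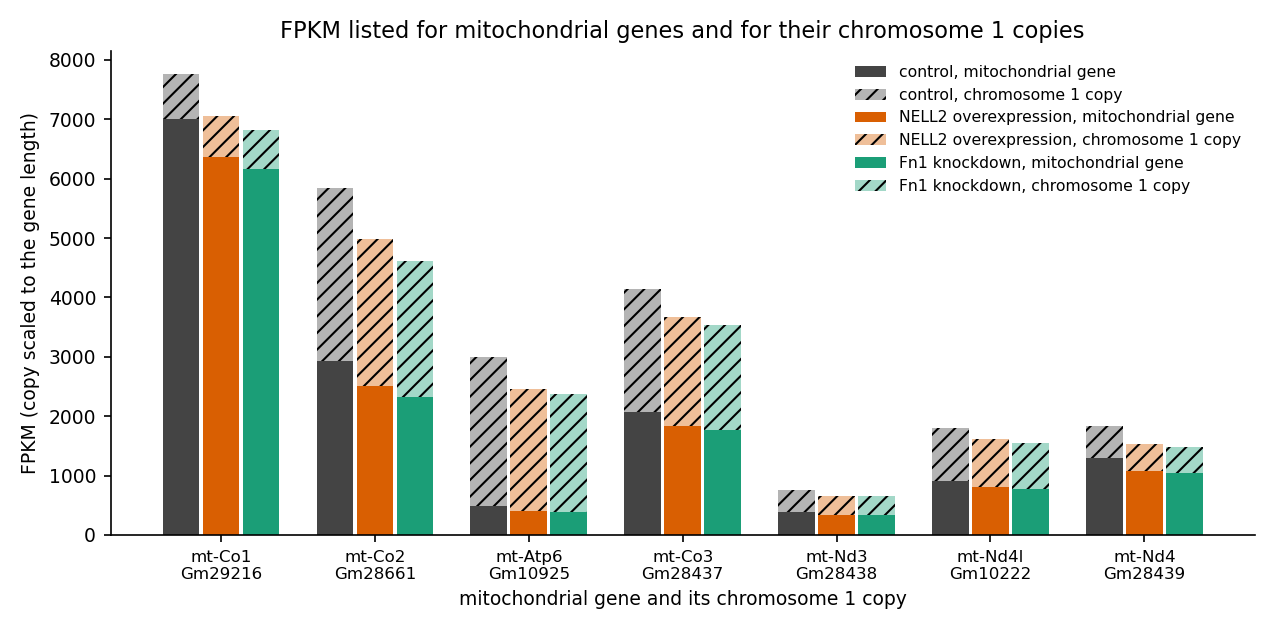
Stacked bars give FPKM in each library for the 7 mitochondrial genes with a chromosome 1 copy, with the solid part for the gene and the hatched part for the copy scaled to the length of the gene. The copy takes about as much as the gene for mt-Co2, mt-Co3, mt-Nd3 and mt-Nd4l and most of the bar for mt-Atp6, and every summed bar is highest in the control.

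Against this background, each of the 13 mitochondrial genes was lower than the control after NELL2 overexpression and after Fn1 knockdown, by less than 1.5-fold. The median ratio was -0.23 on the log2 scale in the NELL2 overexpression library, with an SD of 0.091 over the genes, and -0.31 in the Fn1 knockdown library, with an SD of 0.087. Over all 12544 genes tested for NELL2 overexpression the median was 0.0072 and 47.7% were lower than the control, and over all 12547 tested for Fn1 knockdown the median was -0.0028 and 50.4% were lower. Among the 179 other genes at 300 FPKM or more in the control, which lie nearest to the mitochondrial genes in level, 41.3% and 58.7% were lower. These 179 still held the 7 chromosome 1 copies, all of them listed lower than the control in both libraries. Over the 12705 genes that reached 1 FPKM in at least 1 library, 30.3% were lower in both. No mitochondrial gene was called at 2-fold, where 0.646% of all genes were called for NELL2 overexpression and 1.23% for Fn1 knockdown, and none passed 1.5-fold, where 2.57% and 6.23% of all genes did. The mitochondrial genes are cut from shared precursors, so they are not independent observations of a difference between libraries. In bulk RNA, fewer cells of a type and less of this RNA per cell cannot be told apart.

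**Figure D2:**
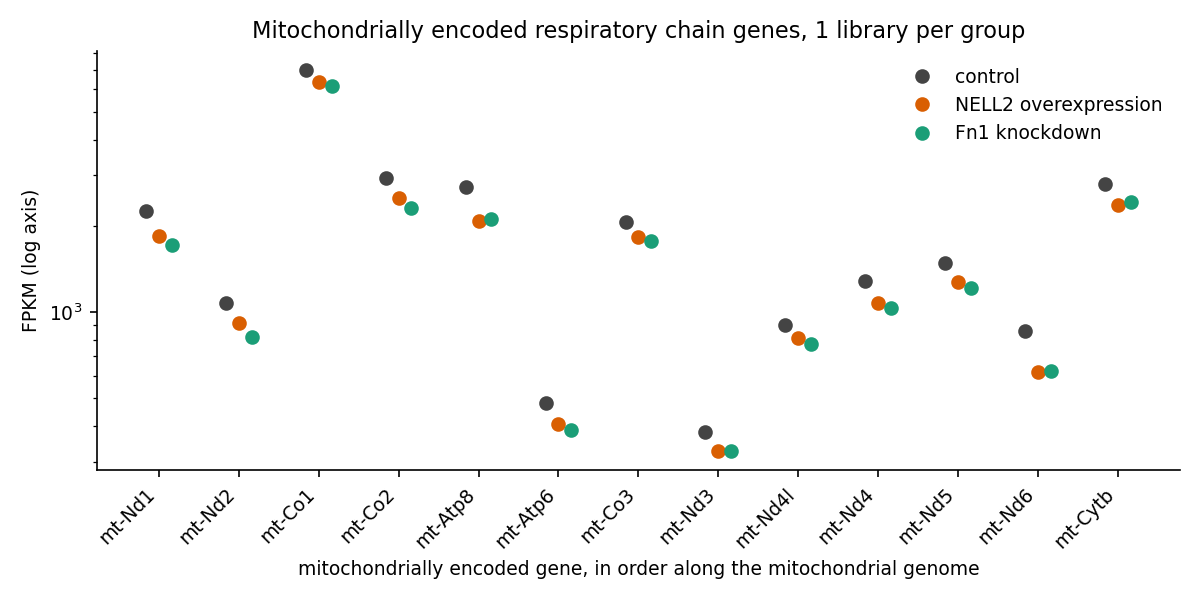
Points give FPKM on a log axis for each mitochondrially encoded gene in the 3 libraries, with genes in the order of the mitochondrial genome. The control point is the highest for every gene, and the NELL2 overexpression and Fn1 knockdown points lie close together, from 72.1% to 90.8% of the control.

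The mitochondrial subunits of complex I form its membrane arm, which pumps protons. mt-Nd1 was at 2246 FPKM in control cells, 1839 with NELL2 and 1715 with the Fn1 siRNA, and mt-Nd2, which follows it on the genome, at 1077, 916 and 817 FPKM. These genes were at 81.9% and 85.1% of the control after NELL2 overexpression and at 76.4% and 75.9% after Fn1 knockdown. mt-Nd3 was at 382, 327 and 329 FPKM, mt-Nd4l at 903, 813 and 776 FPKM, mt-Nd4 at 1288, 1076 and 1035 FPKM and mt-Nd5 at 1481, 1270 and 1211 FPKM. Their ratios to the control ran from -0.15 to -0.26 on the log2 scale after NELL2 overexpression and from -0.22 to -0.31 after Fn1 knockdown.

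mt-Nd6 had the lowest ratio of the 13 in both libraries. It was at 859, 619 and 621 FPKM, which is 72.1% and 72.3% of the control, or -0.47 on the log2 scale in each. It is the only member on the minus strand of the mitochondrial reference (chrM:13552-14070) and lies opposite RNA from the other strand. Whether strand was used in counting is not given in the sources used here, so reads of mt-Nd6 and of an antisense precursor cannot be told apart. Without mt-Nd6 the median of the group was -0.23 and -0.30.

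mt-Cytb, the mitochondrial subunit of complex III that carries its haem b groups, was at 2806, 2367 and 2424 FPKM. In complex IV, mt-Co1, the haem and copper subunit that reduces oxygen, was the highest of all members at 7003, 6358 and 6154 FPKM. mt-Co2, which accepts electrons from cytochrome c, was at 2931, 2502 and 2314 FPKM, and mt-Co3 at 2068, 1833 and 1764 FPKM. mt-Co1 kept the level closest to the control, at 90.8% and 87.9%. In complex V, mt-Atp8 was at 2723, 2076 and 2113 FPKM, or 76.3% and 77.6% of the control, next above mt-Nd6 in the order of NELL2 ratios. mt-Atp6 was at 84.4% and 80.4% of the control as listed, and its ratio was -0.29 and -0.34 with the copy added.

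The direction was the same however the copies were treated. With copies added, the median ratio of the 13 genes was -0.23 after NELL2 overexpression and -0.30 after Fn1 knockdown. For the 6 genes without a chromosome 1 copy alone it was -0.27 and -0.38, a choice made after the copies had been seen.

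The RNAs of the same genome that do not encode protein gave mixed values. mt-Rnr1, the small ribosomal RNA, was at 203, 195 and 134 FPKM. mt-Rnr2, the large one, was at 297, 278 and 322 FPKM. The ratios to the control were -0.06 and -0.60 for mt-Rnr1 and -0.10 and 0.12 for mt-Rnr2. Among the mitochondrial tRNAs, 19 reached 1 FPKM in the NELL2 comparison with a median ratio of -0.0033, and 20 in the Fn1 comparison with a median ratio of 0.41, of which 14 were higher than the control. Past 2-fold in the Fn1 knockdown library were 2 of these 20 tRNAs, beside 1.23% of all genes tested. They were mt-Tr, at 2.51 FPKM in the control and 6.77 after knockdown, and mt-Tw, at 24.9 and 51.4 FPKM, both named after their values were seen. The libraries were made from RNA bound to oligo (dT) beads, a step meant for polyadenylated RNA, and tRNAs are shorter than the 150-base reads, so these levels are less certain than those of the messages.

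The nuclear genes showed no shift of that size. Of the 95, 88 reached 1 FPKM or more in any library. After NELL2 overexpression 61 of the 88 were higher and 27 lower than the control, with a median ratio of 0.05 and 62 within 10% of the control. After Fn1 knockdown 41 were higher and 47 lower, with a median ratio of -0.0044 and 61 within 10%. Of all genes tested, 8193 of 12544 and 5580 of 12547 were within 10% in these comparisons. The median member was at 104% of the control in the first library and at 99.7% in the second. Lower in both libraries were 21, higher in both 35, and 32 lay on opposite sides of the control, 26 of them higher after NELL2 overexpression and lower after Fn1 knockdown. None was called at 2-fold in either comparison with the control, beside 0.646% and 1.23% of all genes, and 1 passed 1.5-fold in each, Ndufaf4 and Cox6b2, beside 2.57% and 6.23% of all genes.

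The groups overlapped little. In the NELL2 comparison 4 of the 88 nuclear genes had a ratio at or below the mitochondrial median, and 3 did in the Fn1 comparison, while 7 and 10 lay below the highest mitochondrial ratio. Over all genes tested the lower quartile of the ratios was -0.085 and -0.165, above the mitochondrial medians. Most genes of any kind thus lay above those medians too, so the small overlap was not particular to the nuclear members. The group medians differed by -0.28 and -0.31 on the log2 scale, mitochondrial minus nuclear. Nuclear members of 20 to 300 FPKM, 73 genes, had an SD of ratios of 0.13 after NELL2 overexpression and 0.15 after Fn1 knockdown, beside 0.16 and 0.25 for the 3164 and 3073 other genes in that range. These SDs describe the spread over genes in single libraries and hold both differences between conditions and differences between any pair of libraries.

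**Figure D3:**
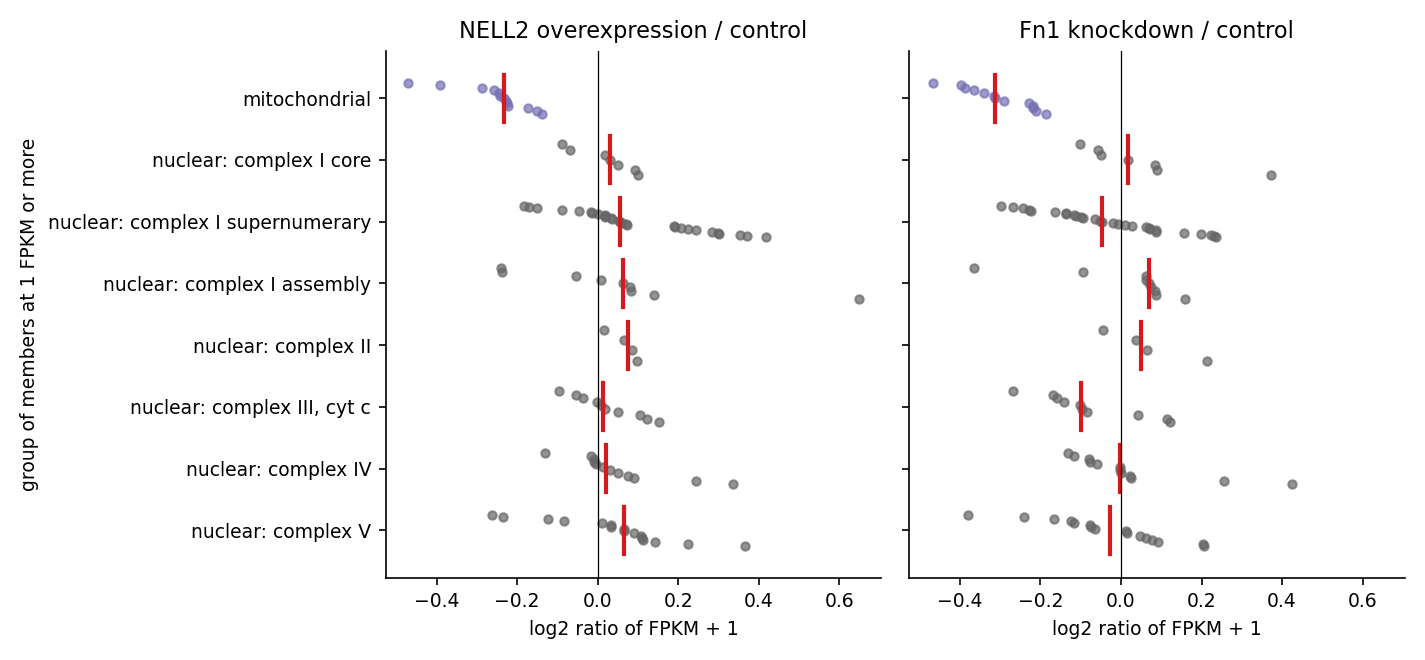
Each point is the log2 ratio of FPKM + 1 to the control of 1 member at 1 FPKM or more, grouped by genome and by complex, and red bars mark group medians. All mitochondrial points lie left of 0 in both panels with medians of -0.23 and -0.31, while the nuclear groups plotted have points on both sides of 0, except complex II after NELL2 overexpression, where all 4 lie to the right. Cox6b2, the 1 tissue-restricted isoform at this level, is not plotted and was lower in both.

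Levels of nuclear subunits differed more between complexes than between libraries. The median subunit of complex I was at 42.8, 44.3 and 40.9 FPKM, that of complex II at 56.7, 60.2 and 61.5, that of complex III with cytochrome c at 76.4, 74.5 and 70.8, and that of complex IV at 109, 111 and 107. The 15 subunits of complex V had a median of 109, 112 and 115 FPKM. As listed, the median mitochondrial subunit stood at 25.1 times the median nuclear subunit of complex I in the control, 36.7 times in complex III, 26.9 times in complex IV and 14.6 times in complex V. These factors were lower in both other libraries, at 20.7 and 19.98 in complex I, 31.8 and 34.2 in complex III, 22.5 and 21.7 in complex IV and 11.1 and 10.8 in complex V. Their size and order depended on the chromosome 1 copies. With the copies added, the factors of complex IV were 53.7, 44.8 and 43.3, the highest of the complexes, and those of complex V 26.1, 20.2 and 19.4. Those of complex I then were 34.6, 28.6 and 29.6, complex III has no such copy, and the control kept the highest factor in each complex.

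**Figure D4:**
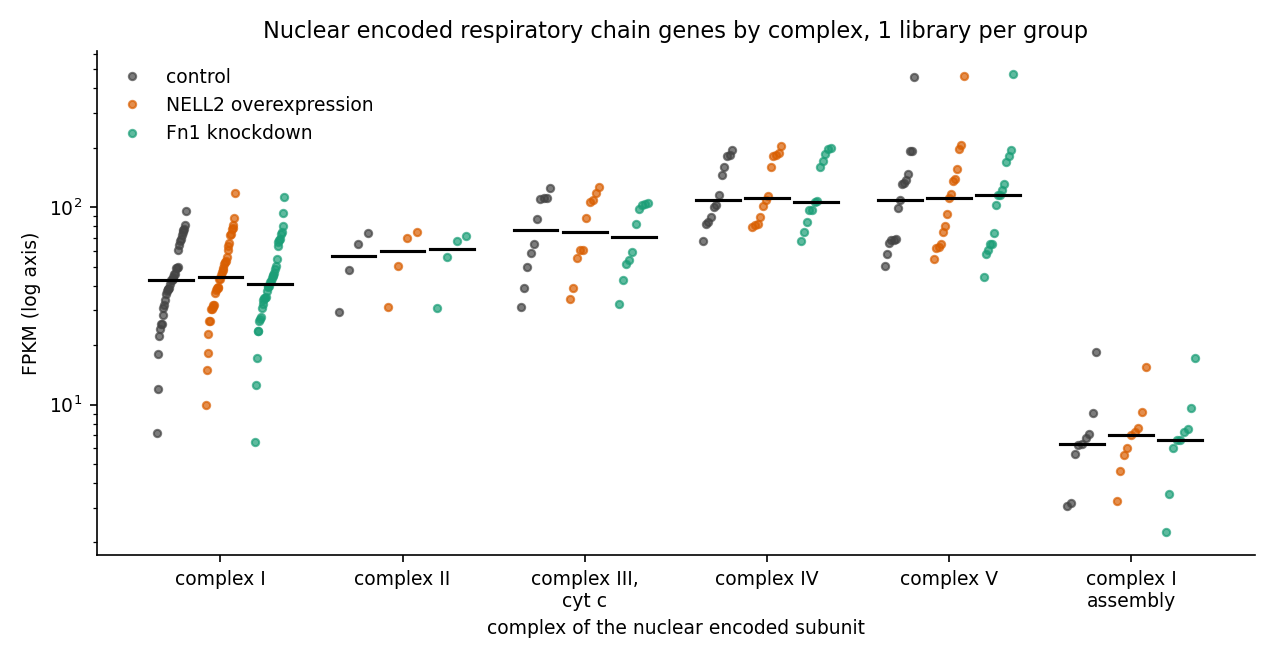
Points give FPKM on a log axis for the nuclear encoded subunits of each complex and for the complex I assembly factors in the 3 libraries, and black bars mark medians, without tissue-restricted isoforms and Atp5s. The medians of a complex lie close together across libraries, and the assembly factors lie lowest of the classes plotted.

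The highest nuclear members in the control were subunits of complexes V and IV, and they lay close together across libraries. Atp5b, the catalytic beta subunit of ATP synthase, was at 460, 463 and 475 FPKM. Cox4i1, the common form of complex IV subunit 4, was at 196, 203 and 200 FPKM, and Atp5a1, the alpha subunit of ATP synthase, at 193, 198 and 196 FPKM. Atp5g3, one of 3 genes for the c ring of ATP synthase, was at 192, 208 and 182 FPKM, and Cox6b1 at 184, 188 and 187 FPKM. None of these 5 differed from the control by more than 10%.

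In complex I, the 7 nuclear core subunits, which hold the flavin and the iron-sulfur clusters, had median ratios of 0.03 and 0.02 after NELL2 overexpression and Fn1 knockdown. Of the 29 supernumerary subunits, which surround the core, 21 were higher after NELL2 overexpression with a median of 0.06, and 12 after Fn1 knockdown with a median of -0.05. Ndufb2 was at 7.17, 9.90 and 6.43 FPKM and Ndufb8 at 43.2, 56.1 and 41.8 FPKM. Both were highest in the NELL2 overexpression library, with ratios of 0.42 and 0.37, and below the control after Fn1 knockdown.

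The complex I assembly factors lay below the subunit medians of all complexes and held the member with the widest range on the log2 scale among nuclear genes that reached 1 FPKM. Ndufaf4, which helps join the early assembly intermediates of complex I, was at 3.18 FPKM in control cells, 5.56 with NELL2 and 2.25 with the Fn1 siRNA, from about 157, 284 and 117 fragments. Its ratios were 0.65 and -0.36, so it was the highest nuclear member in the first comparison and among the 3 lowest in the second. The Fn1 knockdown library set against the NELL2 overexpression library gave -1.01 for Ndufaf4, the only member called at 2-fold between that pair, where 1.28% of all 12571 genes were called. Atp5sl, an assembly factor of complex I despite its name, was at 5.63, 4.62 and 6.05 FPKM, and Ndufaf2 at 18.4, 15.5 and 17.2 FPKM. Over the whole class 6 of 9 were higher after NELL2 overexpression and 7 of 9 after Fn1 knockdown, with medians of 0.06 and 0.07. Ndufaf2 shares 65.1% of its 31-base words with the opposite strand of the gene B230220B15Rik, with which unstranded reads cannot be told apart.

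Complex II is the one complex with no mitochondrial subunit, and its 4 genes stayed near the control. Sdha, the flavin subunit, was at 74.0, 74.8 and 71.8 FPKM, Sdhb, the iron-sulfur subunit, at 48.0, 50.3 and 55.8, Sdhc at 29.3, 31.2 and 30.7, and Sdhd at 65.5, 70.1 and 67.2. All 4 were higher than the control after NELL2 overexpression by at most 0.10 on the log2 scale, and 3 of 4 after Fn1 knockdown, where Sdhb was at 116% of the control.

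In complex III with cytochrome c, 6 of 10 genes were higher after NELL2 overexpression and 3 of 10 after Fn1 knockdown, with medians of 0.01 and -0.10. Uqcrh, the hinge protein that contacts cytochrome c1, had the lowest Fn1 ratio of the class and was at 125, 126 and 103 FPKM. Uqcrfs1, the Rieske iron-sulfur protein, was at 39.1, 39.0 and 42.6 FPKM, and Cycs, the electron carrier cytochrome c, at 31.3, 34.2 and 32.3 FPKM. Uqcrh, Uqcrfs1 and Cycs were picked with their values in view. Cycs shares 26.2% of its 31-base words with the pseudogene Gm10053, listed at 9.44, 9.84 and 9.57 FPKM.

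Complex IV held the highest Fn1 ratio of the nuclear group. Cox6a1, the common form of subunit 6a, was at 146, 184 and 196 FPKM, with ratios of 0.34 and 0.43. Cox5a, a subunit on the matrix side, was at 89.7, 81.8 and 107 FPKM, below the control in the first comparison and above it in the second, with ratios of -0.13 and 0.26. Over the 12 genes, 7 were higher after NELL2 overexpression and 4 after Fn1 knockdown, and the medians were 0.02 and -0.0022.

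In complex V, 12 of 16 genes were higher after NELL2 overexpression and 8 of 16 after Fn1 knockdown, with medians of 0.06 and -0.03. Atp5j, the coupling factor 6 subunit of the stalk, was at 65.8, 54.7 and 60.6 FPKM and had the lowest NELL2 ratio of the nuclear group, -0.26. Atp5j2, the f subunit in the membrane, was at 57.9, 62.5 and 44.3 FPKM, with ratios of 0.11 and -0.38. The genes of the c ring were near the control, with Atp5g1 at 69.3, 74.7 and 73.9 FPKM and Atp5g2 at 109, 112 and 115 FPKM. Atp5g2 shares 37.5% of its 31-base words with the pseudogene Gm10175, listed at 5.70, 6.62 and 6.57 FPKM.

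The isoforms typical of heart and skeletal muscle, lung, testis or hypoxic cells were near absent, and their common partners carried nearly all of the level. Cox4i2 was listed at 0, 0 and 0.0564 FPKM, Cox6a2 at 0.713, 0.965 and 0.342, Cox7a1 at 0.181, 0.260 and 0.738, and Ndufa4l2 at 0.0718, 0.482 and 0.0443. Cox7b2, Cox8b and Cox8c were listed at 0 in all 3 libraries. These 7 were the nuclear members that never reached 1 FPKM. Their partners Cox7a2 (67.2, 79.9 and 67.1 FPKM), Ndufa4 (103, 109 and 97.3 FPKM), Cox7b (81.8, 81.3 and 74.6 FPKM) and Cox8a (161, 160 and 161 FPKM) stood far above them. The exception was Cox6b2, a form known from testis, at 4.80, 4.55 and 2.81 FPKM beside 184 or more for Cox6b1. Its ratio of -0.61 after Fn1 knockdown, from about 48 and 30 fragments, was the lowest of the nuclear group.

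Set directly against each other, the Fn1 knockdown and NELL2 overexpression libraries differed little in mitochondrial messages. In the Fn1 knockdown library 9 of 13 were lower and 12 of 13 were within 10% of the NELL2 overexpression library, with a median ratio of -0.06 and a range from -0.16 in mt-Nd2 to 0.03 in mt-Cytb. The nuclear group had the same median of -0.06, with 61 of 88 lower, beside a median of -0.0096 and 51.9% lower over all 12571 genes tested in this pair. Of those 12571 genes, 5766 were within 10%. The group medians of this pair were equal to 2 decimals, unlike those of either library against the control.

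Promoters of the nuclear members were searched for short sequences known for the factors that bind respiratory genes. RefSeq gave a promoter, 250 bases before to 50 after the start on GRCm38.p6, for 78 of the 95 genes. Both strands were searched, and overlapping matches were counted. The NRF1 sequence GCGCATGC occurred in 13 of the 78 (16.7%), beside 3.05% of all 27025 promoters and 6.10% of the 9379 promoters of genes at 1 FPKM or more. The YY1 sequence AAGATGGC occurred in 12 (15.4%), beside 3.19% and 5.55%, and the ETS family sequence CCGGAAG, to which GABPA binds, in 18 (23.1%), beside 9.93% and 21.004%. A match describes letters in the window and shows no binding.

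Promoters are shown for Ndufaf4, with the widest range of the nuclear members, for Cox6a1, above the control in both other libraries, and for Ndufb8, high after NELL2 overexpression, with matches in capitals. They lie at chr4:24897833-24898132 (plus strand), chr5:115348909-115349208 (minus strand) and chr19:44555393-44555692 (minus strand). The Ndufaf4 promoter holds 3 NRF1 matches, of which the first pair overlap, that of Cox6a1 an overlapping pair of NRF1 matches and an ETS match on the opposite strand, and that of Ndufb8 1 YY1 match.
Ndufaf4: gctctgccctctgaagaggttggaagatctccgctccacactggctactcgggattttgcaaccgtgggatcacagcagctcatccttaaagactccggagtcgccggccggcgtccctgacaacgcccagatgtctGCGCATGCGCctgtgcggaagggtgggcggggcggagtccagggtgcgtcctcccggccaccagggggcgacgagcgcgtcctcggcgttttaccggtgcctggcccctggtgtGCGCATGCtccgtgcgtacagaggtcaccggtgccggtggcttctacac
Cox6a1: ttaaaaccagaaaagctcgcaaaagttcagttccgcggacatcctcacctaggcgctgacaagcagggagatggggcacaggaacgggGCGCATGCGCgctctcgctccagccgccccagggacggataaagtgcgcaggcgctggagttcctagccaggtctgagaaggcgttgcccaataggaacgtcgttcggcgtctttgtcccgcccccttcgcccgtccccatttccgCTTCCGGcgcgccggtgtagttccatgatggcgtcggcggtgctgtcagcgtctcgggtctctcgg
Ndufb8: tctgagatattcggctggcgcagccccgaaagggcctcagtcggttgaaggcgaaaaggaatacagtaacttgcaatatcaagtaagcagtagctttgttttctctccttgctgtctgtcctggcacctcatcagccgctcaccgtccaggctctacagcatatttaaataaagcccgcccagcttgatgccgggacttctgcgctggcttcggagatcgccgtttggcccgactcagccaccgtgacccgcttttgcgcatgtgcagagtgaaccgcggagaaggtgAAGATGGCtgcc

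The factors themselves were expressed at modest levels. Nrf1 was at 9.25, 7.01 and 8.02 FPKM, with ratios of -0.36 and -0.18. Gabpa was at 20.04, 19.2 and 18.8 FPKM, its partner Gabpb1 at 8.70, 8.65 and 8.51, and Yy1 at 19.3, 19.0 and 20.9. Esrra, the estrogen-related receptor alpha, had the highest ratio of the regulators at 1 FPKM or more in both comparisons, 0.23 and 0.30, from 10.2, 12.2 and 12.8 FPKM. Of the coactivators, Ppargc1a was at 0.421, 0.201 and 0.0941 FPKM and Ppargc1b at 0.536, 0.543 and 0.338, both under 1 FPKM throughout, while Pprc1 was at 10.2, 9.61 and 9.18 FPKM. The corepressor Nrip1 was at 3.64, 3.83 and 3.93 FPKM. Over the 7 regulators at 1 FPKM or more the median ratio was -0.02 after NELL2 overexpression and -0.03 after Fn1 knockdown.

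Genes that copy, transcribe and process the mitochondrial genome had median ratios near 0. Of 26 such genes at 1 FPKM or more, 9 were higher after NELL2 overexpression with a median of -0.03, and 16 after Fn1 knockdown with a median of 0.05. None was called, beside 0.646% and 1.23% of all genes, shares so low that none among 26 is unremarkable. Polrmt, the mitochondrial RNA polymerase, was at 7.94, 7.77 and 8.46 FPKM, Tfam, which packs and activates the mitochondrial genome, at 5.58, 6.11 and 5.41, and Lrpprc, which stabilises mitochondrial messages, at 20.04, 19.8 and 20.8. The lowest ratio in the NELL2 comparison was that of Mterf3, at 14.2, 10.1 and 13.4 FPKM, and the lowest in the Fn1 comparison that of Trmt10c, a subunit of the nuclease that frees tRNA 5′ ends from the precursor, at 6.57, 5.93 and 3.44 FPKM, or -0.77 on the log2 scale. These 5 genes were picked with their values in view.

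The other nuclear genes of mitochondria served as a comparison. The 13 enzymes of the tricarboxylic acid cycle had median ratios of -0.01 and -0.02, and the 78 mitochondrial ribosomal proteins 0.03 and 0.04. Of 38 further assembly factors at 1 FPKM or more, with medians of -0.02 and -0.02, 1 was called, Tmem70, which is needed to assemble ATP synthase. It was called in both comparisons, where 0.646% and 1.23% of all genes were called. Tmem70 was at 21.1 FPKM in the control, 8.81 after NELL2 overexpression and 9.25 after Fn1 knockdown, with ratios of -1.17 and -1.11. Both ratios rest on the same control value, and Tmem70 was named after its values were seen.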

How the data were processed

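Messenger RNA was enriched on oligo (dT) beads and sequenced as paired 150-base reads from 3 ST2 libraries. Per the labels and the submitters' processing notes, HISAT2, DESeq and GRCm38 were used. The values analysed are the FPKM per gene deposited by the authors, and the program that made them, the annotation and the use of strand are not given in the sources used here. FPKM is relative to the library total and to transcript length, so reads shared by similar sequences may be split between genes. The members and lists were chosen with earlier results of these data known.

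Ratios used log2(FPKM + 1) over genes that reached 1 FPKM in either of the libraries compared. Depth was estimated from the smallest steps of low FPKM values in genes with a single transcript of 600 bases or more, and fragments per gene are approximate. Of the members, 106 matched GENCODE M21 (GRCm38) by unique name. Shared sequence was counted as identical 31-base words of transcripts, and copies were aligned with Biopython 1.88. Promoters are from RefSeq (GRCm38.p6). Tables were handled with Python 3.11.15, pandas 2.3.3, numpy 2.4.6 and statsmodels 0.14.6, and plotted with matplotlib 3.10.9. The scripts were tested on simulated data.

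Genes named were all mitochondrial members, Nell2 and Fn1, nuclear members past 1.5-fold (0.585 on the log2 scale), the 5 highest in the control, the 3 highest and 3 lowest ratios in each comparison, the tissue-restricted isoforms with their partners, and the regulators. A gene that this rule names is not reported here. Marker genes, complex II and c-ring genes are described as whole groups. The alternatives tried were other pseudocounts, filters, scalings and fold rules, a length trend, and smaller or summed groups of members. Complex V levels leave out Atp5s, a choice made after its value was seen.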

Additional observations from a re-analysis of the deposited data

How the results depend on the processing

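No paired analysis was possible because there was 1 library in a group, which also means that none could be left out. Of 110 alternative values, 93 kept their direction and stayed within 1.5 times the reported value, the limit used in place of a replicate spread. Every mitochondrial median, every difference between the group medians and every share of FPKM was among them. A scaling moves all ratios by nearly the same amount, so the differences between group medians could hardly change under it. Counts past the fold rule that stayed at 0 are also among the values kept, so the tally says little about how firm the results are. The median ratio of the nuclear group after Fn1 knockdown, -0.0044, is too near 0 for its sign to hold. It was -0.0020 with no filter, -0.0022 with a filter at 5 FPKM, 0.010 with median-of-ratios scaling, which reversed it, -0.013 when rescaled without mitochondrial rows, -0.032 without assembly factors and tissue-restricted isoforms and -0.0072 with the length trend removed. Of alternatives chosen after seeing the data, rescaling without mitochondrial rows and their copies gave -0.021 there and 0.030 for NELL2 overexpression, and leaving out members that share sequence gave -0.0020, while adding the copies moved the mitochondrial to nuclear factor of complexes IV and V by over 1.5 times in all 3 libraries. With a 1.5-fold rule 1 member was higher after NELL2 overexpression and 1 lower after Fn1 knockdown, in place of 0. Depth limits the low members, where Cox6b2 rested on about 30 fragments in the Fn1 knockdown library.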
